A study of Mus musculus with 9 samples.

Results

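Integrins are cell-surface receptors made of 1 alpha and 1 beta chain, and laminins are secreted trimers of 1 alpha, 1 beta and 1 gamma chain that form the backbone of basement membranes. The transcripts of these chains were followed across 3 groups of 3 mouse arrays. Genes were taken by annotated symbol alone: Itga with a number or with v, x, m, l, d or e, Itgb with a number, and Lama, Lamb or Lamc with a number. Itga2b was counted as an alpha chain, and Itgbl1, Itgb2l and the binding proteins of Itgb1 and Itgb3 were not taken as chains. This gave 34 of the 18193 genes that had a probe set with exactly 1 symbol: 16 integrin alpha chains, 8 integrin beta chains and 10 laminin chains. Each gene was represented by its probe set with the highest mean log2 signal over the 9 arrays. Itga11 and Itgad were not analysed here.

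Both groups of retinal progenitor cells derived from embryonic stem cells (ESC-RPCs) came from the 46C line, made by gene targeting in E14Tg2a.IV cells, so they represent a single parental line. Per the labels, embryoid bodies were formed over 3 days with the activin receptor-like kinase inhibitor SB431542 and plated on Matrigel, itself a laminin-rich matrix, in a medium without retinoic acid. Sox1-positive cells (35.8%) were sorted on day 7 and cultured with 10 µM DAPT, a Notch pathway inhibitor, and 20 ng/ml bFGF. The DKK1-treated group received 1 ng/ml recombinant DKK1, a Wnt antagonist, for 1 day, and the untreated group did not. Primary retinal progenitor cells (primary RPCs) were taken from the neural retina of newborn C57 mice, dissociated on day 1 after birth. The labels call the primary cells cultured but name no coating for them, so the Matrigel step, the cell source and the group cannot be told apart. The series states 3 independent biological repeats per group.

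Laminins are assembled inside the cell from alpha, beta and gamma chains and are tied to collagen IV by nidogens and by heparan sulfate proteoglycans. Cells bind laminin through integrins that pair Itga3, Itga6 or Itga7 with Itgb1, and Itga6 also pairs with Itgb4 in epithelia. Itgav pairs with several beta chains to bind vitronectin, fibronectin and latent TGF-beta. In the developing retina, laminin of the inner limiting membrane and of the vitreal surface anchors the end-feet of neuroepithelial cells, and integrins containing Itgav and Itgb5 serve at the interface of photoreceptors and pigment epithelium.

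Each array gave 1 MAS5 signal per probe set, on a linear scale. The 40th percentile of an array, used here as the level below which a probe set is called dim, lay at 44.7 to 52.9. Labelled cell types were checked against their markers. The summed signal of 8 measured retinal progenitor markers was 47576 to 56858 on the primary arrays and 17628 to 19785 on the ESC-RPC arrays. The largest share of the ESC-RPC sum was Sox2, a general neural progenitor factor, at 10104 to 11229.9. Six6, an eye field gene, measured 4007 to 4869 on the primary arrays and 31.4 to 89.3 on the ESC-RPC arrays, and Rax, another, 3185 to 4996 against 1.66 to 50.2. Other retinal progenitor genes were well above the 40th percentile in ESC-RPCs but lower than in primary cells: Pax6 at 1087 to 1510.3 against 8847 to 10898, Six3 at 693 to 2212 against 6395 to 7371 and Lhx2 at 1037 to 1662 against 3915 to 4169.9. In all, limma called 7 of the 8 lower and Sox2 higher in untreated ESC-RPCs. Of all genes tested it called 26.8% lower and 26.1% higher. Rax passed the filter through the primary arrays, so its call is no support for a difference. The sum of 5 pluripotency markers, such as Nanog, was 16361 to 20165 on ESC-RPC arrays and 179.9 to 253 on primary arrays.

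Primary replicate 2 stood apart from the other primary arrays. Its summed signal of 5 muscle markers was 8202 against 1572 and 758 on primary replicates 1 and 3, nearly all of it from Actc1, cardiac alpha actin, at 7945. Vcl, which encodes the adhesion protein vinculin, measured 1961, 7438 and 1157 on the 3 primary arrays in the order of their numbers. Tagln, a smooth muscle actin-binding protein, measured 617, 2153 and 501. Not every such gene was high there. Acta2, a smooth muscle actin, was lowest on replicate 2, at 2275, 1923 and 2206. Of the other muscle markers, Des measured 65.1, 90.1 and 58.2, Myh3 75.7, 93.3 and 68.8, and Myod1 14.7, 56.2 and 15.7. Each of these was highest on replicate 2. Myog, at 21.0, 17.4 and 5.58, was dim on all 3 primary arrays. The counts of chains, and the values of Lamb1, Lamb2, Itgb1 and Itga8, are also given without this array.

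Laminin chains such as Lama4, Lamb1 and Lama1 and integrin alpha chains such as Itga9 and Itga6 had higher signals in ESC-RPCs than in primary RPCs, while the integrin chains Itgb5 and Itga4 had lower signals. The higher laminin chains included 3 that are able to form a trimer together. Of the 34 chains, 22 passed the filter on dim probe sets, which asked for a signal above the array's own 40th percentile on at least 3 of 9 arrays. Limma, with p-values adjusted over the 13302 genes tested by the Benjamini-Hochberg method, called 13 of these 22 higher and 2 lower in untreated ESC-RPCs than in primary RPCs at an adjusted p below 0.05. The background was high in this comparison: 53.0% of all genes tested were called, 26.1% higher and 26.8% lower. The 22 chains' median log2 difference was 0.84, against -0.0068 over all genes tested. It includes the 5 chains, named below, that passed the filter through the ESC-RPC arrays. With no filter the median of all 34 chains was 0.45. Of the chains that passed, Itga1, Itga7 and Lamc3 were above the 40th percentile on 0 primary arrays and Itga8 and Lama2 on 1, so these 5 passed through the ESC-RPC arrays and had to differ. The limma p-values printed below for these 5 are therefore no support for a difference. Among the other 17, an exclusion chosen after the data were seen, 8 were called higher and 2 lower. The groups did not overlap for the 15 called chains and overlapped for the 7 not called. Over all genes tested, called or not, the groups did not overlap for 60.0%. In a bulk sample, fewer cells of a type and less RNA per cell cannot be told apart.

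Without primary replicate 2, the count of higher chains was 15, beside 27.2% of all genes tested, and the count of lower chains stayed at 2. DKK1-treated ESC-RPCs were set against the same primary arrays, so the comparison is not independent. There 14 chains were called higher and 2 lower, where 52.8% of all genes tested were called, 26.0% higher and 26.8% lower. Beside the values for untreated cells given below, those for DKK1-treated cells were 2.31 ± 0.22 for Lama4, 1.70 ± 0.24 for Lamb1, 2.76 ± 0.31 for Itga8 and -1.22 ± 0.15 for Itgb5. Itga1 was called against untreated cells alone (log2 difference 1.49 ± 0.67 and limma adjusted p = 0.0869 with DKK1), and Itgb1 (0.55 ± 0.20, adjusted p = 0.0396) and Lamb2 (0.73 ± 0.24, adjusted p = 0.0261) were called with DKK1-treated cells alone. In the direct comparison of the ESC-RPC groups limma called none of these 3 chains.

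**Figure D1:**
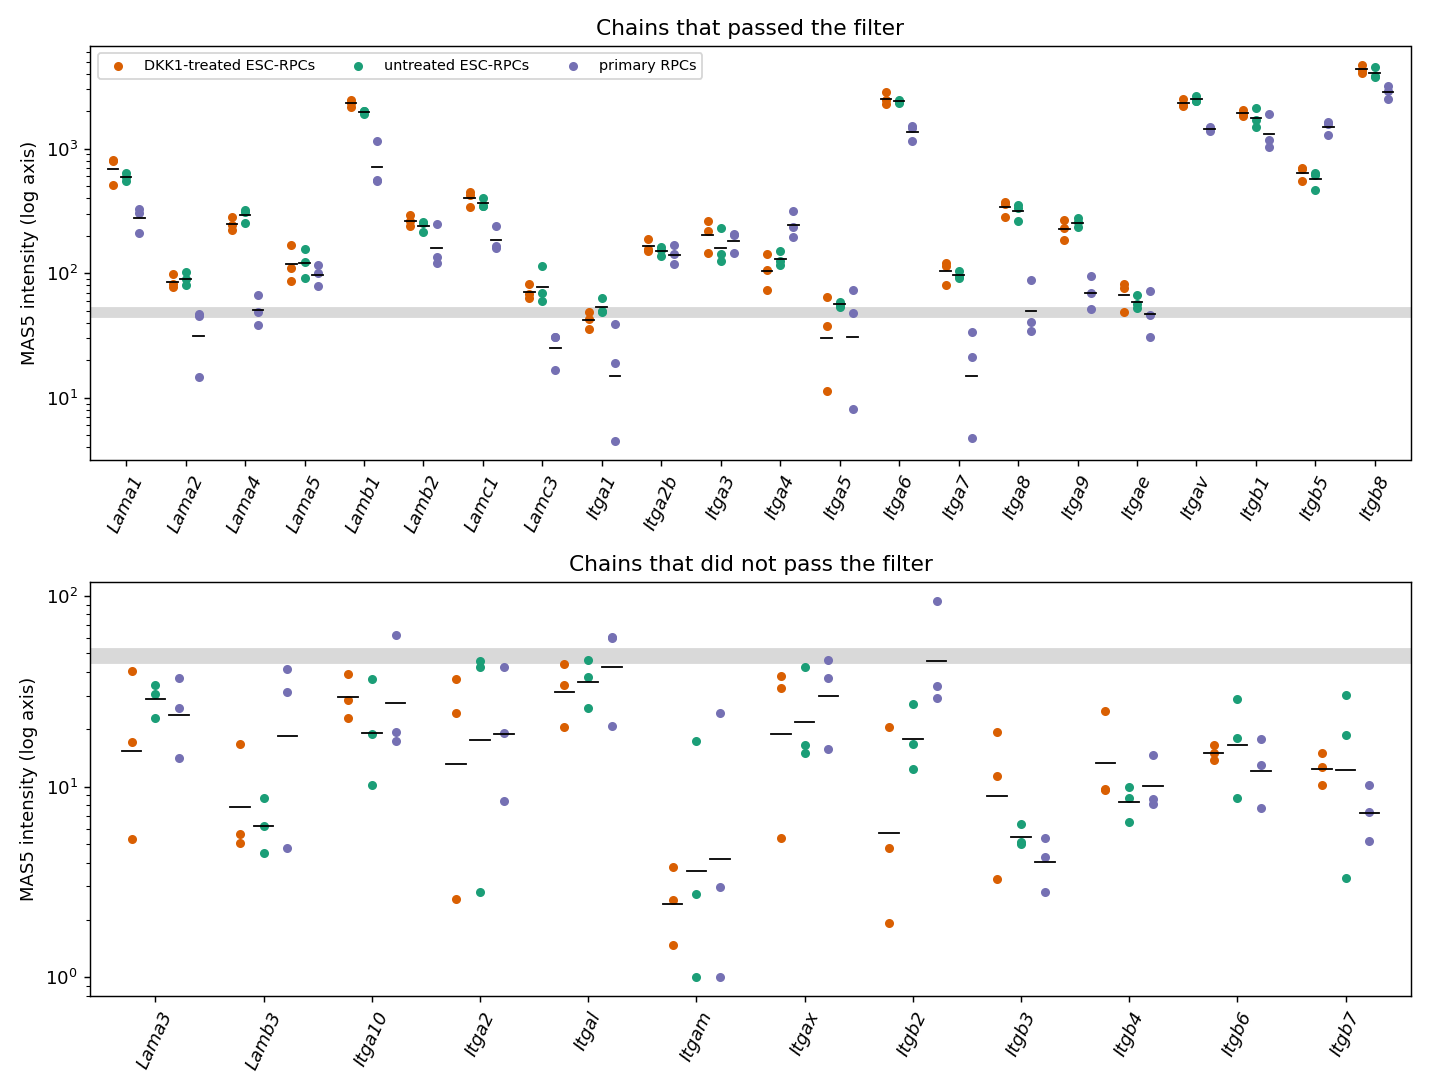
MAS5 intensity on a log axis for each of the 34 chains, with 3 arrays per group as points and the mean of log2 values as a black bar. The grey band spans the 40th percentiles of the 9 arrays, 44.7 to 52.9; the upper panel holds the 22 chains that passed the filter and the lower panel the 12 that did not. Lama4, Itga8 and Itga9 show ESC-RPC points well above the primary points, and Itgb5 shows the opposite order.

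Promoter sequence was set beside 3 of the chains. RefSeq's table for GRCm38.p6 held 25 promoters of 22 of the 34 chains, and the 250 bases before the annotated start were searched on both strands. The sequences shown are those of Itga8, the chain with the largest rise among those the table holds, of Itgb5, the chain most lowered, and of Lamb1, the laminin chain nearest to the threshold with DKK1. They lie at chr12:31265043-31265292, plus strand (Lamb1), chr2:12301945-12302194, minus strand (Itga8) and chr16:33829415-33829664, plus strand (Itgb5), each written 5′ to 3′ on the gene's strand, with matches to the GC box in capitals.
Lamb1: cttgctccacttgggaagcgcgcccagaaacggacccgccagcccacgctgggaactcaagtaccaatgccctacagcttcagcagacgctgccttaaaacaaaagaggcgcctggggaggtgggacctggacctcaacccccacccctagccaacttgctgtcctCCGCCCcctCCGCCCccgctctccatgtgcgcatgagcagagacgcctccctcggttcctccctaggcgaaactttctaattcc
Itga8: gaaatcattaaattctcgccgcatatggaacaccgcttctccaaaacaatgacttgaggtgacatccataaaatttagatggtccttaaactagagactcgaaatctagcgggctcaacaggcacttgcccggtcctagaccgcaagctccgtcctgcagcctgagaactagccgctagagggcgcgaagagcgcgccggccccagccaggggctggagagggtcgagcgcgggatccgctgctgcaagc
Itgb5: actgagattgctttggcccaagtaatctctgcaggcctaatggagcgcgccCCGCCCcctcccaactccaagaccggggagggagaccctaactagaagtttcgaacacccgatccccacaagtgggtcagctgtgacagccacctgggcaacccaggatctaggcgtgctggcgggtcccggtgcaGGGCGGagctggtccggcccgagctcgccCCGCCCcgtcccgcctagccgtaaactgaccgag
The GC box, GGGCGG or its complement, occurred 2 times in the Lamb1 window, 3 times in that of Itgb5 and 0 times in that of Itga8. It was present in 9 of the 25 windows (36.0%) and in 32.7% of 32851 promoters in the table. TATAAA was in 0 of the 25 and in 12.4% of all, the TCF/LEF motif CTTTGAT in 0 and in 3.21%, the CRX/OTX motif TAATCC in 2 and in 6.25%, and the AP-1 motif TGANTCA in 1 and in 6.75%. A match is a description of these windows only. The median GC content was 57.6% in the 25 windows and 52.4% in all, and the median number of CpG dinucleotides was 10.0 against 6.

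The 3 chains of the laminin trimer of early embryonic basement membranes, Lama1, Lamb1 and Lamc1, each had a higher signal in ESC-RPCs. Lamb1, a beta chain used by many laminins, measured 2344, 2155 and 2445 in DKK1-treated ESC-RPCs, 1998, 1891 and 1990.2 in untreated ESC-RPCs and 558, 1164 and 550.5 in primary RPCs. The ESC-RPC arrays lay above the primary arrays, and primary replicate 2 was the highest of the primary arrays. The log2 difference between untreated ESC-RPCs and primary RPCs was 1.46 ± 0.24 (SE from limma, here and below; limma adjusted p = 0.000447), and 1.82 ± 0.08 without primary replicate 2. Lama1, the alpha chain of that trimer, measured 799, 509.9 and 805 in DKK1-treated ESC-RPCs, 590.2, 553 and 642 in untreated ESC-RPCs and 305, 212 and 328 in primary RPCs. No ESC-RPC array fell into the primary range, and primary replicate 2 was the lowest of the primary arrays, the reverse of its place for Lamb1. The difference was 1.10 ± 0.21 (limma adjusted p = 0.00126). Lamc1, the common gamma chain, measured 428, 339 and 453 in DKK1-treated ESC-RPCs, 346, 348 and 403 in untreated ESC-RPCs and 242, 159 and 166 in primary RPCs. The groups were again apart, with a difference of 0.97 ± 0.18 (limma adjusted p = 0.00124).

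Lama4, an alpha chain known from vascular and mesenchymal basement membranes, had the largest difference among the laminin chains. It measured 243, 285 and 223 in DKK1-treated ESC-RPCs, 309.6, 319 and 252 in untreated ESC-RPCs and 38.3, 67.4 and 49.3 in primary RPCs. The 6 ESC-RPC arrays lay far above the primary arrays, 1 of which was dim, with a log2 difference of 2.54 ± 0.22 (limma adjusted p = 6.59e-06). Lama2, the alpha chain of muscle and nerve laminin, measured 77.5, 99.3 and 82.3 in DKK1-treated ESC-RPCs, 103, 90.4 and 80.2 in untreated ESC-RPCs and 14.7, 47.1 and 45.2 in primary RPCs. Each ESC-RPC array was above the 3 primary arrays, of which only replicate 3 passed its own 40th percentile, and by little. The difference was 1.53 ± 0.42 (limma adjusted p = 0.0106), and 0.98 ± 0.25 without primary replicate 1. Lamc3, a gamma chain reported in retina and brain, measured 67.9, 63.6 and 81.9 in DKK1-treated ESC-RPCs, 59.9, 115 and 69.7 in untreated ESC-RPCs and 30.6, 16.8 and 30.9 in primary RPCs. All its primary values were dim, so untreated ESC-RPCs were at least 1.65-fold higher, taking the 40th percentiles as the primary level. The limma adjusted p of 0.00327 belongs to the fitted difference on dim values, not to this bound.

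Lama5 and Lamb2, which join in the laminins of mature basement membranes, did not pass the test between untreated ESC-RPCs and primary RPCs. Lama5, an alpha chain of many epithelia, measured 111.1, 86.8 and 169.8 in DKK1-treated ESC-RPCs, 123, 91.3 and 157 in untreated ESC-RPCs and 99.8, 117 and 79.4 in primary RPCs, and the 3 groups overlapped (log2 difference 0.31 ± 0.29, limma adjusted p = 0.402). Another Lama5 probe set that passed the filter had the opposite sign, at -0.50 ± 0.37 (limma adjusted p = 0.294). Lamb2, a beta chain of retinal and synaptic laminins, measured 264, 239.8 and 294 in DKK1-treated ESC-RPCs, 255, 214 and 260.0 in untreated ESC-RPCs and 135, 247 and 122 in primary RPCs. Primary replicate 2 lay within the ESC-RPC range and the other primary arrays lay below it. The difference was 0.60 ± 0.24 with all arrays (limma adjusted p = 0.0577) and 0.92 ± 0.16 without primary replicate 2 (limma adjusted p = 0.000808), and the call turned on that array. Lama3 and Lamb3, chains of the epidermal laminin, did not pass the filter, with values of 5.31 to 40.5 and 4.47 to 41.4 over the 9 arrays.

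Of the alpha chains that bind laminin together with Itgb1, Itga6 and Itga7 had higher signals in ESC-RPCs and Itga3 did not pass the test. Itga6, a laminin receptor chain of neural and other stem cells, measured 2473, 2279 and 2833 in DKK1-treated ESC-RPCs, 2370.0, 2343 and 2475 in untreated ESC-RPCs and 1532, 1455 and 1149 in primary RPCs. The ESC-RPC arrays stood above the primary arrays without overlap, with a log2 difference of 0.81 ± 0.12 (limma adjusted p = 0.000256). Itga7, the laminin receptor chain best known from muscle, measured 121, 114 and 81.0 in DKK1-treated ESC-RPCs, 91.1, 104 and 94.7 in untreated ESC-RPCs and 4.72, 34.0 and 21.1 in primary RPCs. Its primary values were all dim, including that of replicate 2 with its high Actc1, and untreated ESC-RPCs were at least 2.03-fold higher. The limma adjusted p of 0.00346 belongs to the fitted difference on dim values, not to this bound. It is no support, as Itga7 passed the filter through the ESC-RPC arrays alone. Itga3 measured 145, 219.6 and 265 in DKK1-treated ESC-RPCs, 125, 143 and 230.3 in untreated ESC-RPCs and 208, 144 and 202 in primary RPCs. Its groups overlapped (log2 difference -0.19 ± 0.28, limma adjusted p = 0.604). Itgb4, the epithelial partner of Itga6, did not pass the filter and ranged from 6.52 to 24.8.

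Itgb1, the beta chain shared by most of these receptors, did not pass the test against untreated ESC-RPCs. It measured 1903, 1839 and 2056 in DKK1-treated ESC-RPCs, 1498, 1709.7 and 2109 in untreated ESC-RPCs and 1173, 1886 and 1027 in primary RPCs. Primary replicate 2 lay inside the ESC-RPC range and the other primary arrays lay below it, as for Lamb2. The log2 difference from untreated ESC-RPCs was 0.42 ± 0.20 (limma adjusted p = 0.108), 0.68 ± 0.13 without primary replicate 2 (limma adjusted p = 0.00208) and 0.24 ± 0.20 without primary replicate 3. Of 2 other Itgb1 probe sets above the 40th percentile on all arrays, 1 gave 0.62 ± 0.37 (limma adjusted p = 0.184), and the other, with means of 1228 and 1207, gave a difference of 0.04 ± 0.12 (limma adjusted p = 0.821). The call for Itgb1 changed with the array left out, and the size with the probe set.

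Receptor chains for vitronectin, fibronectin and latent TGF-beta went in both directions. Itgav, the alpha chain of these receptors, measured 2253, 2184 and 2504 in DKK1-treated ESC-RPCs, 2421, 2667 and 2427 in untreated ESC-RPCs and 1488, 1382 and 1461 in primary RPCs. The ESC-RPC arrays were higher without overlap, by 0.79 ± 0.08 in log2 (limma adjusted p = 2.62e-05). The mean over all 5 Itgav probe sets, 4 of which did not pass the filter, turned the direction, to -0.18, which limma did not call. Itgb8, a partner of Itgav that activates TGF-beta in the nervous system, measured 4322, 4083 and 4722 in DKK1-treated ESC-RPCs, 3853, 3765 and 4495 in untreated ESC-RPCs and 3175, 2489.9 and 2895 in primary RPCs. The ESC-RPC arrays lay above the primary range, by 0.50 ± 0.11 (limma adjusted p = 0.00252).

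Itgb5, another partner of Itgav, was the chain with the largest difference in the opposite direction. It measured 701, 685 and 546 in DKK1-treated ESC-RPCs, 639, 610.2 and 470.1 in untreated ESC-RPCs and 1279, 1636 and 1568 in primary RPCs. Each primary array lay above the highest ESC-RPC array, and the log2 difference of untreated ESC-RPCs from primary RPCs was -1.39 ± 0.15 (limma adjusted p = 3.63e-05), a level 2.62-fold lower. Its other 3 probe sets gave -1.27 ± 0.14, -1.41 ± 0.11 and -1.03 ± 0.15, each called by limma. Itga8, a receptor chain for nephronectin and other ligands that is known from kidney and mesenchyme, went the other way. It measured 363, 286 and 373 in DKK1-treated ESC-RPCs, 331, 264 and 354 in untreated ESC-RPCs and 34.2, 89.1 and 40.8 in primary RPCs. Primary replicate 2 was the 1 primary array above its 40th percentile, and the difference was 2.65 ± 0.31 (limma adjusted p = 5.45e-05), or 3.07 ± 0.19 without that array. This p-value is no support, as Itga8 passed the filter through the ESC-RPC arrays. Itga5, the fibronectin receptor chain, measured 38.0, 11.3 and 64.6 in DKK1-treated ESC-RPCs, 58.8, 53.8 and 56.0 in untreated ESC-RPCs and 47.6, 73.4 and 8.16 in primary RPCs. These values were scattered about the 40th percentile and did not pass the test (0.88 ± 0.82, limma adjusted p = 0.389). Itgb3 and Itgb6, further partners of Itgav, did not pass the filter, with highest values of 19.4 and 28.7.

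Itga4 and Itga9, closely related alpha chains that pair with Itgb1 and bind VCAM1, fibronectin or tenascin, differed in opposite directions. Itga9 measured 184, 232 and 267 in DKK1-treated ESC-RPCs, 233, 256 and 279.7 in untreated ESC-RPCs and 69.7, 95.6 and 51.5 in primary RPCs. The ESC-RPC arrays lay above all primary arrays, by 1.87 ± 0.24 (limma adjusted p = 8.82e-05). Itga4 measured 106, 73.7 and 142 in DKK1-treated ESC-RPCs, 126, 117 and 152 in untreated ESC-RPCs and 196, 236 and 315 in primary RPCs. The primary arrays lay above the ESC-RPC arrays, with a log2 difference of -0.90 ± 0.26 for untreated cells (limma adjusted p = 0.0143) and -1.24 ± 0.26 for DKK1-treated cells (limma adjusted p = 0.00252). The Itga4 call against untreated cells was lost without untreated replicate 2 (limma adjusted p = 0.0522) and without primary replicate 3 (limma adjusted p = 0.0556).

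The collagen receptor chains had low signals, near or below the 40th percentile. Itga1 measured 35.8, 48.8 and 42.6 in DKK1-treated ESC-RPCs, 63.5, 48.9 and 49.7 in untreated ESC-RPCs and 4.49, 39.4 and 19.2 in primary RPCs. The primary values were all dim and untreated ESC-RPCs were at least 1.13-fold higher. The fitted difference on these dim values had a limma adjusted p of 0.0407. That call was lost when any 1 array other than primary replicate 2 was left out (limma adjusted p of 0.0532 to 0.11). Itga2 and Itga10 did not pass the filter. Itga2 was dim on every array and Itga10 passed its 40th percentile on 1 array, primary replicate 2, at 62.4.

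Chains of leukocyte and platelet integrins made up most of the rest. Itgam, Itgax, Itgal and Itgb2, the chains of macrophage and lymphocyte integrins, did not pass the filter, nor did Itgb7. Over their 9 arrays, 4 lay above the array's 40th percentile: Itgb2 at 94.0 on primary replicate 3, Itgal at 60.9 and 60.5 on primary replicates 1 and 3, and Itgax at 46.1 on primary replicate 3. The summed signal of 12 microglia and leukocyte markers was 1217, 1204 and 2095 on the 3 primary arrays and 261 to 336 on the ESC-RPC arrays, where 9 of the 12 were dim in each group; its part in the Itgb2 and Itgal values was not tested. Itgae, the chain of intraepithelial lymphocytes, passed the filter at 31.0 to 81.7 and did not pass the test. Itga2b, the platelet chain, measured 151, 189 and 157 in DKK1-treated ESC-RPCs, 154, 138 and 163 in untreated ESC-RPCs and 118, 167 and 142 in primary RPCs, with overlap of all groups and no call (log2 difference 0.10 ± 0.18, limma adjusted p = 0.666). Its partner Itgb3 was dim on every array.

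The array held 73 probe sets for the 34 chains, and 20 chains had more than 1. Of the 39 other probe sets, 14 passed the filter, and 11 of these belonged to chains called between untreated ESC-RPCs and primary RPCs. All 11 had the sign of the chain's chosen probe set, and limma called 8 of them. For Lamb1 the other probe sets that passed gave 1.54 ± 0.26 and 1.24 ± 0.19, both called. Those not called were 2 of Itga4 (-1.24 ± 0.65, adjusted p = 0.141, and -0.64 ± 0.34, adjusted p = 0.146, by limma) and 1 of Lamc1 (0.50 ± 0.20, limma adjusted p = 0.0597).

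**Figure D2:**
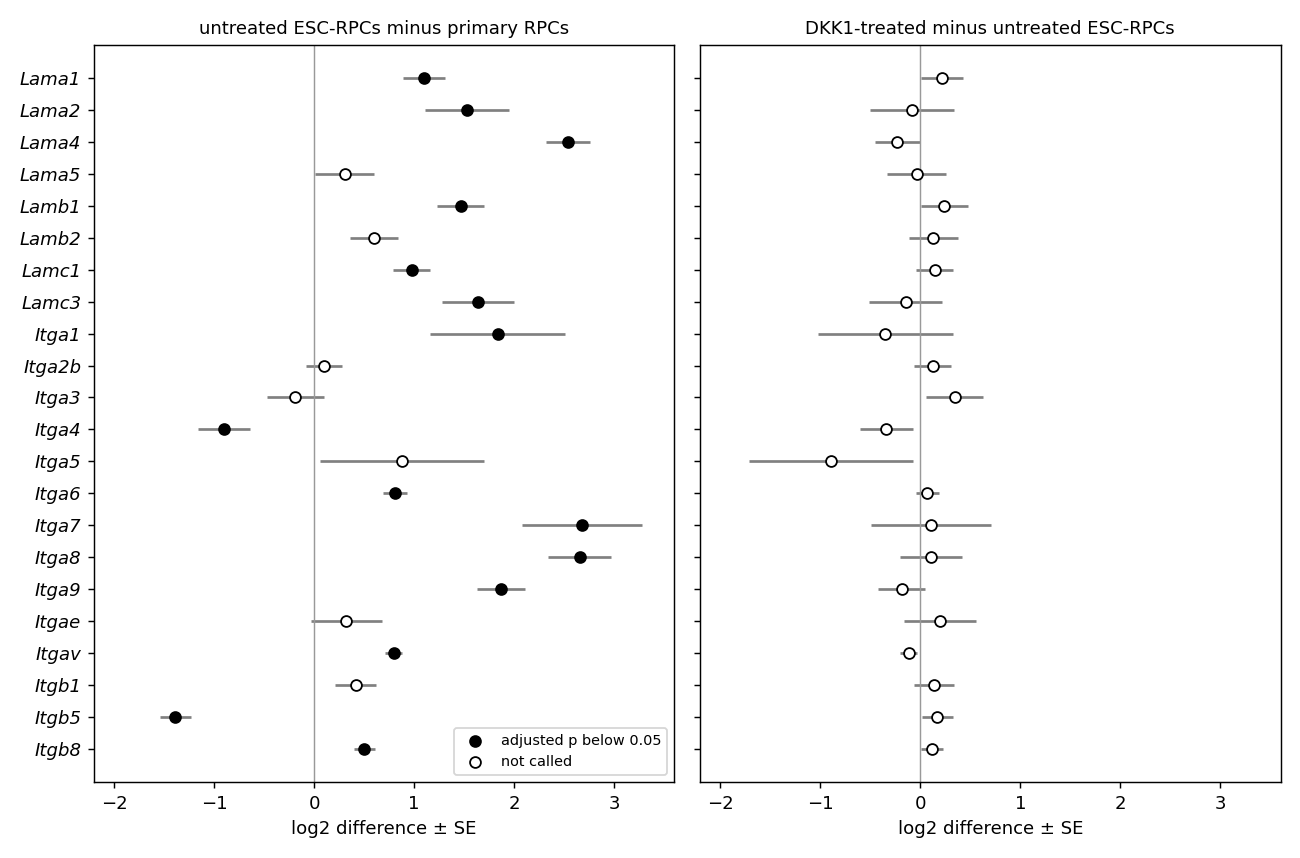
Log2 difference ± SE from limma for the 22 chains that passed the filter, untreated ESC-RPCs minus primary RPCs at left and DKK1-treated minus untreated ESC-RPCs at right, with filled points at an adjusted p below 0.05. At left the values run from -1.39 for Itgb5 to 2.68 for Itga7, a fitted value for dim primary arrays, and at right no chain was called.

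No chain was called between DKK1-treated and untreated ESC-RPCs. Limma called 0 of the 22 chains between DKK1-treated and untreated ESC-RPCs, as it called 0.0% of all 13302 genes, of which 307 had an unadjusted p under 0.05; for the chains that number was 0 in this fit without pairing. The median log2 difference of the 22 chains was 0.11, with 13 higher and 9 lower, against -0.0018 over all genes tested. The smallest unadjusted p-values in this limma fit belonged to Itgav (-0.12 ± 0.08), Itga4 (-0.34 ± 0.26), Itga3 (0.35 ± 0.28) and Itgb5 (0.17 ± 0.15), with limma adjusted p-values that rounded to 1. By replicate number, the DKK1-treated array was the higher in 3 of 3 pairs for Itga3 and Itgb5, the lower in 3 of 3 for Itga4, and the lower in 2 of 3 for Itgav. The median SE of a chain was 0.239, against 0.154 over all genes tested, so a missing call does not show that a chain stayed the same. The largest difference, -0.89 ± 0.82 for Itga5, came from values near or below the 40th percentile.

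Same-numbered ESC-RPC arrays deviated together, and a fit of these 6 arrays with a replicate block was therefore also made. It called 66 genes (0.496%) and 0 of the 22 chains. Lamb1, Itgb8, Itgb5 and Itga3 had an unadjusted limma p under 0.05 in this fit. The share of all genes under that cutoff is not given here, so this is no result about the chains. Lamb1, named here after its values were seen, came nearest to the threshold: it was higher with DKK1 in 3 of 3 pairs, by 0.23, 0.19 and 0.30, with a paired log2 difference of 0.24 ± 0.04 and a limma adjusted p of 0.059. Its lowest DKK1-treated array, 2155, was above its highest untreated array, 1998. The other Lamb1 probe sets that passed the filter gave 0.34 ± 0.26 and 0.34 ± 0.19 without the block. Groups did not overlap for 2 of the 22 chains, Lamb1 (higher) and Itga1 (lower), where 12.0% of all genes tested had such groups. Itgb8 was next, higher in 3 of 3 pairs by 0.12 ± 0.04 (limma adjusted p = 0.174).

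Genes that work with these chains were read from 3 lists written from textbook function. The partners of laminin in basement membranes were mostly higher in untreated ESC-RPCs than in primary RPCs: of 23 measured, 19 passed the filter, and of these 17 were called higher and 0 lower, beside 26.1% and 26.8% of all genes. Their median log2 difference was 1.21. Nid2, a nidogen that links laminin to collagen IV, measured 1409.9 ± 131 against 53.1 ± 22.4 (mean ± SD, n = 3; log2 difference 4.82 ± 0.25, limma adjusted p = 1.48e-07). Nid1, its relative, measured 1930.1 ± 92.0 against 397 ± 106 (2.32 ± 0.16), and Ntn1, the laminin-related guidance molecule netrin, 4092 ± 535 against 152 ± 75.3 (4.85 ± 0.27). Col4a5, a collagen IV chain, measured 2155 ± 444 against 597 ± 59.7 (1.84 ± 0.15). The 2 partners that were not called, Hspg2 and Bcam, had differences of -0.22 ± 0.15 and -0.48 ± 0.51. Col4a1, another collagen IV chain, was high on primary replicate 2 too, at 3267 against 1100.1 and 973. Without that array the counts were again 17 and 0, and the differences were 5.13 ± 0.17 for Nid2 and 5.23 ± 0.15 for Ntn1.

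Other ligands of integrins went both ways. Of 27 measured, 26 passed the filter, and 10 were called higher and 7 lower (median 0.22), beside 26.1% and 26.8% of all genes, so the share of lower ligands was near that of all genes. Vtn, vitronectin, measured 2217 ± 862 against 82.2 ± 4.65 (4.68 ± 0.26 in log2, limma adjusted p = 2.41e-07) and Tnc, tenascin C, 2346 ± 554 against 228 ± 104 (3.42 ± 0.29). Postn, periostin, was dim on all primary arrays and at least 20.7-fold higher. It passed the filter through the ESC-RPC arrays, so its call is no support for a difference. Vcam1, a ligand of integrins with Itga4 or Itga9, measured 789.9 ± 9.64 against 147 ± 43.6 (2.46 ± 0.17). The lower ligands included Tgfb2, a TGF-beta, at 1029 ± 175 against 2112 ± 323 (-1.04 ± 0.17, limma adjusted p = 0.000471), and Mfge8, a ligand of integrins with Itgav, at 1463 ± 173 against 2209 ± 128 (-0.60 ± 0.13), both named after their values were seen. Reln, L1cam, Tgfb3, Ccn2 and Ccn3 were the other lower ones. Fn1, fibronectin, did not pass the test (0.10 ± 0.16, limma adjusted p = 0.622).

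Cytoplasmic adaptors and kinases of integrin adhesions showed no common direction. Of 39 measured, 37 passed the filter, 10 were called higher and 8 lower in untreated ESC-RPCs, shares close to the 26.1% and 26.8% of all genes, and the median log2 difference was 0.0092. Rsu1, a partner of the ILK complex, measured 1544 ± 49.9 against 856 ± 119.6 (0.86 ± 0.11, limma adjusted p = 8.55e-05), and Tns3, a tensin, 2268 ± 69.7 against 1238 ± 297 (0.90 ± 0.15). Tln1, talin, which activates integrins by binding the beta chain's tail, measured 1114 ± 129.9 against 1989 ± 350.3 (-0.83 ± 0.16), and Flna, filamin A, 1383 ± 198 against 2138 ± 192 (-0.63 ± 0.13). Between DKK1-treated and untreated cells limma called 0 genes of the 3 lists, with 0, 0 and 1 at an unadjusted p under 0.05 in the order given.

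**Figure D3:**
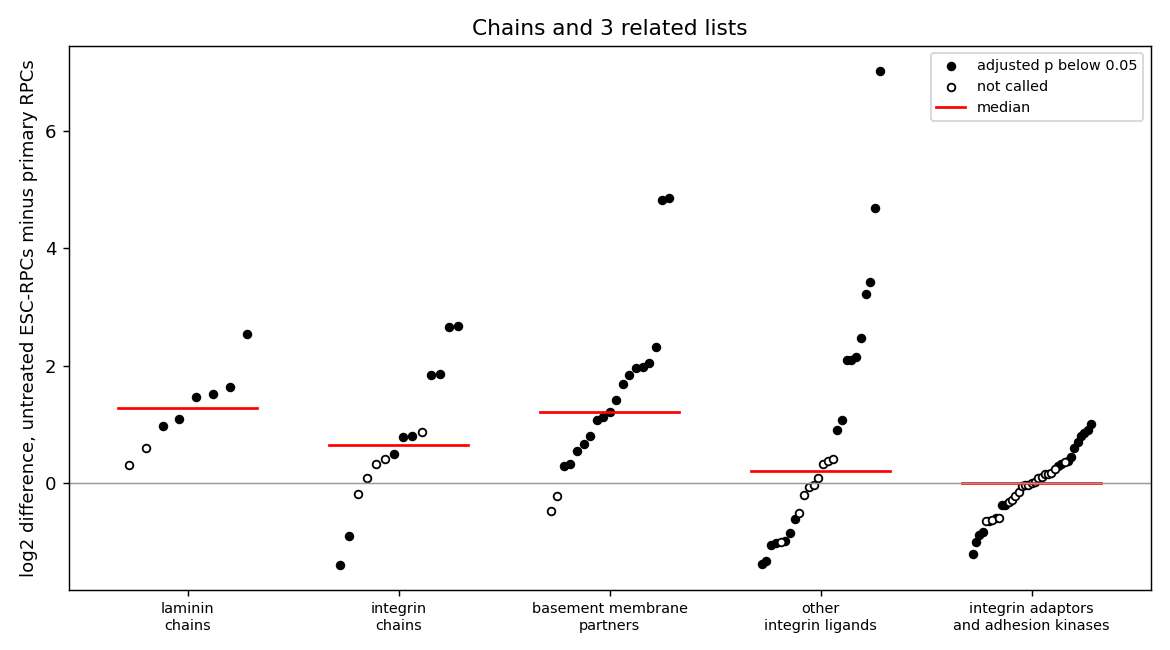
Log2 difference of untreated ESC-RPCs minus primary RPCs for each gene that passed the filter, as points within each list (filled at a limma adjusted p below 0.05), with the list's median as a red line. The medians are 1.28 for laminin chains and 1.21 for basement membrane partners, and that of adaptors and kinases is 0.0092. The laminin median includes Lama2 and Lamc3, which passed the filter through the ESC-RPC arrays.

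Signals of markers for other cell types also differed between the groups. The counts of called markers below stand beside 26.1% of all genes tested called higher and 26.8% called lower in untreated ESC-RPCs. Lum, Postn, Twist1, Col3a1, Foxa2, Sox17, Aqp4, Gfap, Foxd3 and Emcn were above the 40th percentile on 0 or 1 primary arrays. They passed the filter through the ESC-RPC arrays, and Crx and Nrl through the primary arrays. The calls of these genes are therefore no support for a difference. The summed signal of 12 mesenchyme markers was 21326 to 25392 on untreated against 4038 to 5832 on primary arrays. Of these, 9 were called higher and 2 lower (Tagln and Thy1) in untreated ESC-RPCs, and Lum, Postn and Twist1 were dim on all primary arrays. For 10 markers of primitive and parietal endoderm, an early lineage that deposits much laminin, the sum was 14099.9 to 15778 on untreated against 4584 to 7396 on primary arrays, with 6 called higher and 0 lower. Most of that sum was Col4a1 and Sparc, which are also on the list of basement membrane partners. Sox17, a defining factor, measured 214 to 359 against 15.3 to 22.6. Gata4, at 33.3 to 43.9 in untreated cells, was not called, nor were Gata6 and Thbd. Sox7, also not called, lay in the other direction, at 25.2 to 45.6, all dim, against 52.2 to 109.9. For 6 astrocyte markers it was 18299 to 21125 on untreated against 1689 to 1969 on primary arrays, with 5 called higher. For 9 endothelial markers it was 599 to 731 on untreated against 6102 to 7858 on primary arrays, of which Kdr alone, a receptor that retinal progenitors also express, gave 5186 to 7316. Limma called 1 of the 9 higher (Emcn) and 2 lower (Kdr and Cldn5). Cldn5, a tight junction gene of endothelium, measured 76.0 to 92.9 and 209 to 379, Pecam1, another defining marker, 71.2 to 77.0 and 45.9 to 55.8, and Tie1 and Tek were dim in both groups. Pecam1 was not called, nor were Esam, at 82.1 to 98.0 and 92.7 to 187.9, and Eng, at 73.8 to 97.4 and 62.5 to 77.6. Cdh5 did not pass the filter, at 20.9 to 41.2, all dim, and 29.9 to 96.9. The 4 measured Schwann cell and neural crest markers summed to 683 to 787 on untreated against 437 to 612 on primary arrays. Erbb3 and Foxd3 were called higher. Ngfr and Sox10 were not called, with means of 352 and 49.4 on untreated against 362 and 50.6 on primary arrays. The 6 platelet and erythroid markers summed to 172 to 207 on untreated against 421 to 633 on primary arrays. Of these, 4 were dim in each group, and Pf4 and Gp1bb were called lower. For 5 photoreceptor markers the sum was 1410 to 1790 on untreated against 23697 to 33770 on primary arrays. Of these, 4 passed the filter and all 4 were called lower, and 3 were dim on all untreated arrays. Neurod1 measured 1317 to 1657 against 15717 to 18762, and Prdm1 75.5 to 98.5 against 4173 to 6869. The part of these cell types in the chain differences was not tested.

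Primary replicate 2 was high for some chains and low for others. Among the 22 chains that passed the filter, replicate 2 had the highest of the 3 primary values for 14. Over all genes tested it was the highest for 40.1%, a smaller share. However, Itga1, Itga5, Itga7, Itga8, Itgae, Lama2 and Lama4, counted there, were dim on 1 or more arrays. The 40th percentile of replicate 2 was 52.9, against 44.7 and 44.9 on replicates 1 and 3. Among the 14 chains above the 40th percentile on all 9 arrays, replicate 2 lay above the mean log2 value of replicates 1 and 3 for 8. Its excess over that mean was 1.07 in log2 for Lamb1, 0.94 for Lamb2, 0.78 for Itgb1 and 0.67 for Itga9. For Lama1, Itga3 and Lamc1 the same difference was -0.58, -0.51 and -0.33. No cause of this array's profile was tested.

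**Figure D4:**
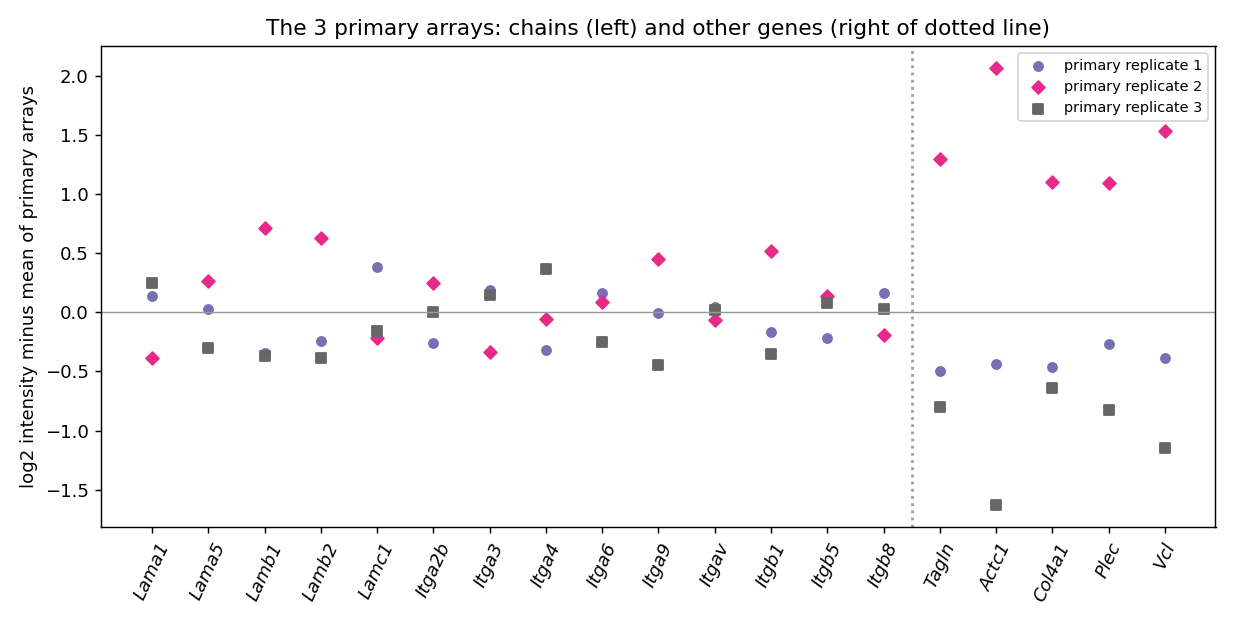
Log2 intensity of each primary array minus the mean of the 3 primary arrays, for the 14 chains above the 40th percentile on all arrays (left of the dotted line) and for 5 other genes chosen after their values were seen (right). Replicate 2 is the highest array for Lamb1, Lamb2 and Itgb1 and for Tagln, Actc1, Col4a1, Plec and Vcl, and the lowest for Lama1 and Itga3.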

How the data were processed

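Total RNA of 9 samples was labelled as biotinylated cRNA and hybridised to Affymetrix 3-prime arrays. The deposited values are linear intensity values that the authors made with MAS5, per the submitters' processing notes; version and settings are not given in the sources used here. In each deposited column the mean after trimming 2% at either end was 500, a scaling found from the values. The table held 45101 probe sets; 64 controls, 932 with several genes and 9160 with no listed gene were set aside. Gene names came from the platform annotation of 2016. Log2 was taken with no further normalisation, and the highest probe set by mean stood for each gene.

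Limma 3.58.1 in R 4.3.3 fitted 1 mean per group to all 9 arrays, with an intensity trend, for 13302 genes. Arrays give no read depth, and their number limits the precision. P-values treat the 3 arrays of a group as independent, as the series states. Deviations from the group means correlated at 0.127 to 0.319 between same-numbered ESC-RPC arrays and at -0.222 to 0.0613 between others (for primary arrays, -0.0401 to 0.00196), so ESC-RPC numbers were taken as pairs, which the labels do not state. The fit was tested on simulated data before use.

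Named singly were 9 set chains and, among chains called between untreated and primary cells, up to 10 rises and 10 falls without overlap; the 4 smallest p-values with DKK1; and up to 4 genes of each related list. Where a group was dim on all arrays, folds were computed against the 40th percentiles and printed as bounds. Members, lists and rules were chosen with earlier results of these data known. Alternatives were other normalisations, filters, pseudocounts, probe set summaries, blocks and leaving out each array.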

Additional observations from a re-analysis of the deposited data

How the results depend on the processing

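Between untreated ESC-RPCs and primary RPCs, leaving out 1 array gave 12 to 15 chains called higher and 1 to 2 called lower by limma, with medians of 0.74 to 0.93; Itga4 was the chain lost from the lower calls without untreated replicate 2 and without primary replicate 3. With DKK1-treated cells against primary RPCs, 12 to 15 were called higher, with medians of 0.70 to 0.97, and between the ESC-RPC groups medians were 0.05 to 0.12 with 0 calls. Leaving out the 5 chains with fewer than 2 primary arrays above the 40th percentile, a choice made after seeing the data, left 8 called higher in untreated cells. Without a filter the medians of all 34 chains were 0.45 and 0.54 against primary cells. Averaging the probe sets of each gene, most of them dim for Itgav, gave a median of 0.64 for untreated cells and 1 chain called lower against primary cells with either ESC-RPC group, and turned Itgav to -0.18 for untreated and -0.61 for DKK1-treated cells. Setting arrays to one median moved the median of all genes by less than 0.1 and called 15 chains higher. Genes called between the ESC-RPC groups numbered 1 without the intensity trend and 66 with the replicate block on 6 arrays, 0 of them chains; the replicate block on 9 arrays called 0 genes and changed no chain's call. Of the chains' single values under all alternatives, 384 kept direction and call in untreated against primary cells, 16 lost the call, 5 gained it and 1 turned. The cause of these changes was not tested. Signals near the 40th percentile limit what Itga1, Itga5, Itgae, Lama2 and Lamc3 can show.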
